A study of Sus scrofa with 32 samples.

Results

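The genes EIF4E3, FGL2, SOS2, EMB, TLK2, UBASH3B, SMC6, NDFIP1, GPRC5B and POF1B of the pig endometrium were followed through the cell compartments of the uterine lining on Day 14 of pregnancy. They are 10 of 30185 genes counted. They were chosen by their measured difference between pregnant and cyclic gilts, which was large in luminal epithelium (LE) and, for most of them, small elsewhere. Each was matched by its pig symbol to 1 NCBI gene. In LE, 9 of the 10 were higher in pregnant gilts, from 3.14-fold for TLK2 to 155-fold for EMB as a ratio of mean levels, and SMC6 was lower. No library of pregnant LE overlapped cyclic LE for any of the 10. Such a gap was found for 10.3% of genes tested in LE in the higher and 9.12% in the lower direction. In the glandular epithelium (GE), in blood vessels (BV) and in the stroma (S), none of the members tested passed the limit used. Of all genes tested there, 0.748%, 1.86% and 0.293% passed it. EIF4E3 in GE and EMB in S came nearest to the limit, with ratios of mean levels of 2.84 and 3.51. Both were called by the robust GLM of edgeR, the method that the study itself used. GPRC5B in GE and POF1B in GE, BV and S were too low to be tested, though POF1B had 31 counts in pregnant and 1 in cyclic S.

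The 8 gilts had been prepuberal and were brought into oestrus with eCG and hCG. The 4 pregnant gilts were inseminated with German Landrace semen, the 4 cyclic gilts received semen supernatant of the same boar, and all were slaughtered on Day 14. Pregnant endometrium was taken at the hyperemic zones, where conceptuses had lain before they were removed, while no such zone exists in a cyclic uterus. Compartments were cut from frozen sections by laser capture microdissection, which collects visible cells under a microscope, so that each library is a small bulk sample of 1 compartment of 1 gilt. Gilts are called here by the names of their LE libraries, CL for cyclic and PL for pregnant. With pregnant GE at n = 3, because the GE library of gilt PL41 was not analysed here, and every other group at n = 4, there were 31 libraries of 2415216 to 7081556 counts, with a median of 3624021. Levels are CPM, counts scaled to the total of a library, with TMM factors over all libraries, and fewer cells of a type cannot be told apart from less RNA per cell. Log2 fold changes are pregnant over cyclic with their standard error (SE).

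On this day the pig conceptus has elongated, releases oestrogen and cytokines and begins to attach. LE is the sheet of cells to which it attaches without invasion, and it receives the signals of the conceptus first. The 10 genes do different things in such a cell. SOS2, UBASH3B and GPRC5B belong to signalling, and EMB, FGL2 and POF1B act at the cell surface or in cell junctions. EIF4E3 and NDFIP1 serve translation and protein turnover, TLK2 acts on histone chaperones, and SMC6 maintains the genome.

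The sequence before the annotated gene start was read for all 10 genes from Sscrofa11.1 with its NCBI RefSeq annotation, as the 250 bases upstream. All 250 bases of the TLK2 and EIF4E3 windows, and 195 of the SMC6 window, lie in exons of neighbouring genes. Those windows are included in the values and motif counts given here. The 10 windows differed widely. The GC content ran from 40.4% for TLK2 to 82.4% for NDFIP1, while 11471 protein-coding genes detectable in LE had a median of 60.8% and quartiles of 52.0% and 69.6%. The observed to expected ratio of CpG was 0.076 for POF1B, 0.196 for TLK2 and 0.226 for EMB, against a median of 0.735 over those genes, and it was 1.01 or higher for EIF4E3, SOS2, SMC6 and NDFIP1. The windows of EMB, POF1B and FGL2, the genes with the largest fold changes in LE, are shown with that of NDFIP1, the one richest in GC. Capitals mark the motifs found on either strand.
EMB, chr16:30170496-30170745, minus strand: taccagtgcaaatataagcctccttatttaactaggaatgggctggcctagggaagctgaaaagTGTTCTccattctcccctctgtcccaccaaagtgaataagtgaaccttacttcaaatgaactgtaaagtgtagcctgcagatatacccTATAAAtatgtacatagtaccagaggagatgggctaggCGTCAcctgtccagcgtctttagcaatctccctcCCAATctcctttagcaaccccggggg
POF1B, chrX:68579918-68580167, minus strand: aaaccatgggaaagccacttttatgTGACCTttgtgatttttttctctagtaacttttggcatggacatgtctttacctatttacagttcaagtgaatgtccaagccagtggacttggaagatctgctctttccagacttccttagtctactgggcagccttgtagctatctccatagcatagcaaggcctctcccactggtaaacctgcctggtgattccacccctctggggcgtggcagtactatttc
FGL2, chr9:102868794-102869043, plus strand: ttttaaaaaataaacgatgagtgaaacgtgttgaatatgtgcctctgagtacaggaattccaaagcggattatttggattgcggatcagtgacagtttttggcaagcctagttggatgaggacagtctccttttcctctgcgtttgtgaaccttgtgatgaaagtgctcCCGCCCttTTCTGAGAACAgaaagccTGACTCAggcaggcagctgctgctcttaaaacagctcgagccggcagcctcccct
NDFIP1, chr2:143688696-143688945, plus strand: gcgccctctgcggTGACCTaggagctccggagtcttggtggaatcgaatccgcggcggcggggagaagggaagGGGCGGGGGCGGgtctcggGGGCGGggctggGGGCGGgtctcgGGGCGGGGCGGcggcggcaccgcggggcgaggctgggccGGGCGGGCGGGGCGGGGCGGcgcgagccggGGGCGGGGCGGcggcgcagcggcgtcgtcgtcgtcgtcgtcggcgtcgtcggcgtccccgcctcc

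In the EMB window the capitals mark, in order, a progesterone response core (AGAACA, here on the other strand), a TATA box (TATAAA), a CRE core (TGACG, other strand) and a CCAAT box (CCAAT). The TATA box lay 98 to 93 bases before the start, and EMB was 1 of 10 genes with one, against 7.1% of the 11471. In the POF1B window they mark an oestrogen response core (AGGTCA or its complement). In the FGL2 window they mark a GC box (GGGCGG, other strand), then a STAT motif (TTCNNNGAA) that runs into a progesterone response core, and an AP-1 motif (TGANTCA). FGL2 was the sole member with a STAT motif, found in 5.63% of all windows, or an AP-1 motif, found in 3.97%. In the NDFIP1 window they mark 12 GC boxes, some overlapping, and an oestrogen response core.

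Counted over the members, a GC box was present in 5 of 10 (57.2% of all windows), a CRE core in 3 (23.7%), a CCAAT box in 2 (32.5%), a progesterone response core in 2 (8.71%) and an oestrogen response core in 2 (10.8%). The E-box CACGTG (7.59%), the full oestrogen response element GGTCANNNTGACC (0.00872%), the interferon element GAAANNGAAA (2.56%) and the NF-kB motif GGGANTTTCC (0.366%) were in none. No motif was shared by more than 5 members, and a match says only that the letters are there. The windows of EIF4E3, TLK2 and SMC6 are not shown because they hold exons of neighbouring genes, GPR27, LOC110256160 and GEN1.

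**Figure D1:**
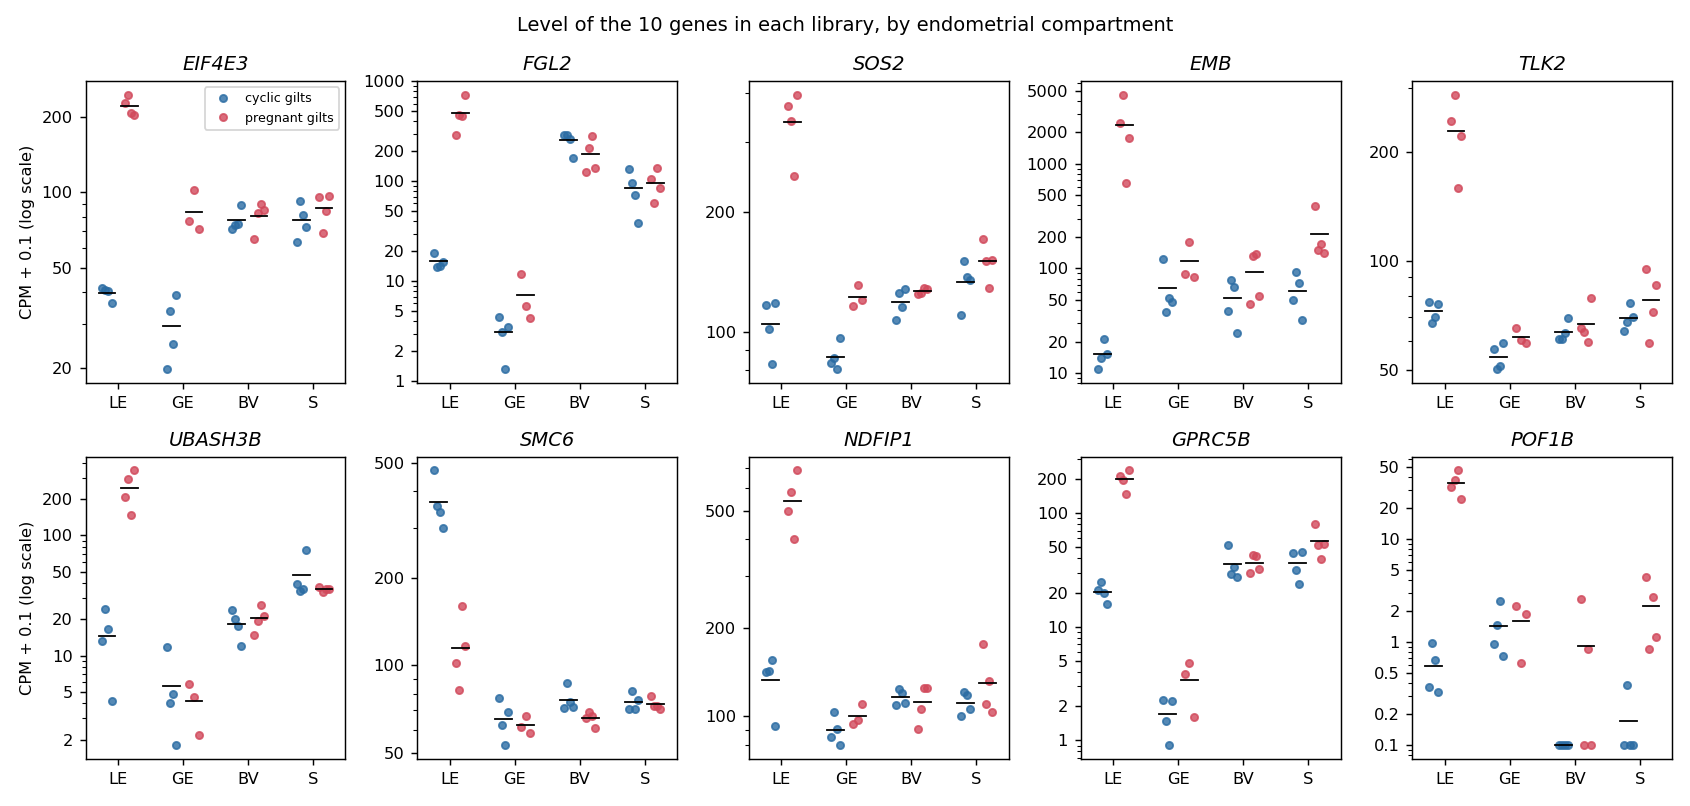
Level of each of the 10 genes in every library, as CPM plus 0.1 on a log axis, with cyclic gilts in blue, pregnant gilts in red and the group mean as a black bar. In LE the red and blue points are apart in every panel, while in BV and S they overlap in most.

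EMB encodes embigin, an immunoglobulin-type membrane protein that accompanies monocarboxylate transporters to the cell surface. It lies at chr16:30121072-30170495. Cyclic LE had 10.7, 13.8, 21.1 and 15.2 CPM in gilts CL128, CL40, CL42 and CL78, and pregnant LE had 2450, 4582, 653 and 1750 CPM in gilts PL139, PL39, PL41 and PL43, the order kept for the other genes. Every pregnant library stood far above the cyclic ones, yet the pregnant gilts spread over a 7.02-fold range among themselves, the widest of the 10 genes. The log2 fold change was 7.29 (SE 0.66). In cyclic gilts LE had less EMB than any other compartment, at 15.2 ± 4.37 CPM (SD, n = 4) beside 65.4 ± 39.2 in GE, 52.1 ± 24.7 in BV and 61.2 ± 26.2 in S. In S the pregnant gilts had 395, 151, 173 and 141 CPM and did not overlap the cyclic 49.3, 91.7, 72.2 and 31.8 CPM, a log2 fold change of 1.82 (SE 0.41). In GE and BV it was 0.83 (SE 0.44 in each), with overlapping groups.

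FGL2, fibrinogen-like protein 2, has a membrane form that cleaves prothrombin and a secreted form that restrains immune cells. It lies at chr9:102869044-102875564. Its LE level was 19.3, 13.8, 14.3 and 15.5 CPM in cyclic gilts and 292, 459, 448 and 734 CPM in pregnant gilts, a log2 fold change of 4.95 (SE 0.31). BV held FGL2 in both states, at 256 ± 57.2 CPM in cyclic and 189 ± 74.9 CPM in pregnant gilts, so that LE went from far below BV to above its mean. GE was the low end, at 2.98 ± 1.30 CPM in cyclic and 7.16 ± 4.07 CPM (n = 3) in pregnant gilts. The whole gene lies within CCDC146 on the opposite strand, and whether the counting used strand is not given in the sources used here. CCDC146 itself had 5.09 ± 1.20 CPM in LE of cyclic and 13.6 ± 6.27 CPM in LE of pregnant gilts, under FGL2 in each state, but in GE it had 26.0 ± 11.2 and 46.1 ± 30.7 CPM, above FGL2. Its part in the counts of FGL2 was not tested.

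POF1B is an actin-binding protein of epithelial cell junctions. It lies at chrX:68503170-68579917, and LE was the sole compartment in which it passed the authors' filter. Its mean in cyclic LE was below that in cyclic GE, where it did not pass. It thus passed in LE through the pregnant libraries, and passing is no separate sign of a place in LE. In LE it went from 0.268, 0.874, 0.571 and 0.228 CPM, together 8 counts, to 32.1, 37.5, 46.4 and 24.7 CPM, together 645 counts. The log2 fold change was 6.09 (SE 0.38), and the pooled ratio was 76.2 with an exact 95% interval of 38.4 to 177 for counting error. In GE it had 1.33 CPM in cyclic and 1.49 CPM in pregnant gilts on average, from 25 and 19 counts. Cyclic BV had 0 counts in all 4 libraries, which allows up to 0.246 CPM, and pregnant BV had 6 counts in gilt PL139, 2 in gilt PL41 and 0 in the other libraries. Set against that limit of 3 counts over the group, the 8 counts gave a ratio of 3.15, which leaves out their own counting error. The exact 95% interval of the ratio for counting error starts at 2.02. Without gilt PL139 these values were 1.02 and 0.288, so that the difference in BV rests on 1 gilt. In S there was 1 count in cyclic and 31 in pregnant gilts, a ratio of 41.6 with an interval of 6.94 to 1697, and the groups did not overlap. Gilt PL139 held 18 of the 31 counts, and without it the ratio was 26.1 (interval 3.92 to 1110), while without gilt CL78 it was 27.6. Without gilt CL40, which held the single cyclic count, no ratio could be formed and the interval starts at 8.44. Epithelial markers moved in the same captures: their sum was 2.84 to 50.4 CPM in cyclic and 174 to 312 CPM in pregnant BV, and 11.7 to 184 CPM in cyclic and 34.9 to 483 CPM in pregnant S, and their part in the POF1B counts there was not tested.

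SOS2 is a guanine nucleotide exchange factor that switches on Ras below receptor tyrosine kinases. It lies at chr1:179907578-180014941. LE had 117, 101, 82.7 and 118 CPM in cyclic and 370, 339, 247 and 395 CPM in pregnant gilts, a log2 fold change of 1.70 (SE 0.21). In GE the pregnant libraries, at 116 to 131 CPM, also lay above the cyclic ones, at 80.2 to 96.0 CPM, but the step was small (log2 0.49, SE 0.13). BV and S overlapped, with log2 fold changes of 0.10 (SE 0.11) and 0.18 (SE 0.14).

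UBASH3B is a phosphatase that damps signalling from tyrosine kinases and binds ubiquitin. It lies at chr9:49630678-49772348. LE had 13.1, 24.5, 16.5 and 4.10 CPM in cyclic gilts, the lowest in gilt CL78, and 208, 292, 147 and 346 CPM in pregnant gilts, a log2 fold change of 4.11 (SE 0.50). GE was low in both states, at 5.48 ± 4.31 and 4.08 ± 1.84 CPM. In S the mean was lower in pregnant gilts, 35.5 ± 1.23 beside 46.3 CPM, where the cyclic libraries had 39.4, 34.2, 35.4 and, in gilt CL78, 76.0 CPM.

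GPRC5B, an orphan G protein-coupled receptor of a retinoic acid-inducible family, lies at chr3:25870369-25896113. LE went from 20.9, 24.5, 19.7 and 15.7 CPM to 214, 196, 147 and 238 CPM, a log2 fold change of 3.32 (SE 0.21). GE had 1.62 ± 0.65 CPM in cyclic and 3.32 ± 1.65 CPM in pregnant gilts, and GPRC5B did not pass the filter there. BV was level between the states, at 35.8 ± 11.7 and 36.7 ± 6.77 CPM, and S had 36.5 ± 10.8 and 56.6 ± 17.3 CPM with overlapping groups.

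TLK2 is a kinase that acts on histone chaperones during DNA replication. It lies at chr12:16129249-16256642. LE had 76.8, 67.3, 69.9 and 75.8 CPM in cyclic and 242, 287, 159 and 221 CPM in pregnant gilts, a log2 fold change of 1.66 (SE 0.20). GE differed by 0.17 (SE 0.13), BV by 0.09 (SE 0.13) and S by 0.18 (SE 0.16). The overlapping gene LOC110256160 on the other strand was low, but it was also higher in pregnant LE, with 7.48 ± 1.95 beside 1.82 ± 0.59 CPM (log2 fold change 2.04, SE 0.36, adjusted p = 0.0093 by the quasi-likelihood test of edgeR). Its part in the counts of TLK2 was not tested.

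EIF4E3 is an atypical member of the family that binds the cap of mRNA. It lies at chr13:53080200-53152335. By coefficient of variation the LE libraries were the tightest of the 10 genes, at 6.08% in cyclic and 8.68% in pregnant gilts. They had 41.5, 40.8, 40.5 and 36.2 CPM in cyclic and 227, 244, 206 and 203 CPM in pregnant gilts, a log2 fold change of 2.48 (SE 0.14). GE moved the same way, from 29.3 ± 8.68 to 83.2 ± 16.3 CPM without overlap (log2 1.49, SE 0.26). That value lay just outside the limit used in GE, where EIF4E3 ranked 119 by p and 89 genes were called. BV and S were level, with 77.3 ± 7.81 and 80.7 ± 10.8 CPM in BV and 77.5 ± 12.4 and 86.3 ± 13.1 CPM in S. The mean level of EIF4E3 in LE was below that of BV and S in cyclic gilts and above both in pregnant gilts. GPR27, which overlaps the gene by 298 bases on the other strand, had 10.1 ± 5.56 CPM in LE of cyclic and 28.8 ± 7.66 CPM in LE of pregnant gilts (log2 fold change 1.54, SE 0.40, adjusted p = 0.0387 by edgeR), and its part in the counts of EIF4E3 was not tested.

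NDFIP1 is a membrane adaptor that recruits and activates ubiquitin ligases of the NEDD4 family. It lies at chr2:143688946-143734523. LE had 141, 143, 156 and 92.6 CPM in cyclic and 498, 581, 400 and 687 CPM in pregnant gilts, a log2 fold change of 2.05 (SE 0.23). In GE, BV and S the difference was 0.16 (SE 0.15), -0.04 (SE 0.13) and 0.23 (SE 0.18).

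SMC6 is a subunit of the SMC5/6 complex, which handles DNA damage and replication stress. It lies at chr3:120097361-120170974, and it was the sole member that was lower in pregnant LE. Cyclic LE had 473, 356, 340 and 299 CPM and pregnant LE had 102, 82.4, 160 and 117 CPM, a log2 fold change of -1.65 (SE 0.23). Both LE groups lay above nearly all other libraries, which ranged from 52.9 to 86.9 CPM over GE, BV and S. In BV the pregnant libraries, at 60.5 to 69.0 CPM, were just under the cyclic ones, at 71.3 to 86.9 CPM.

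**Figure D2:**
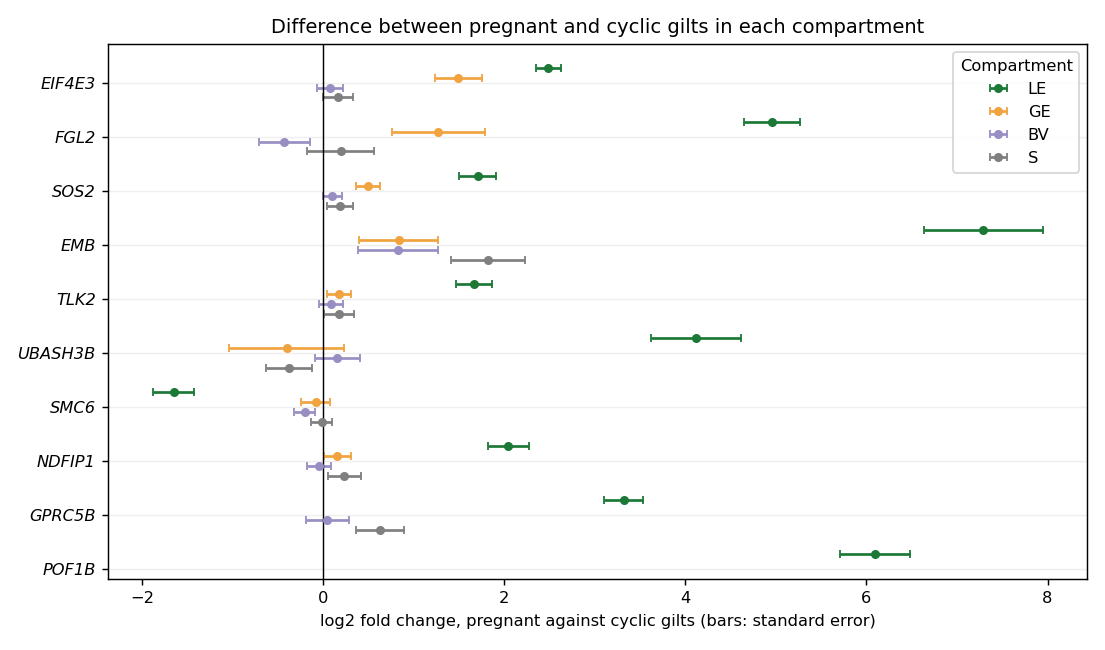
Log2 fold change between pregnant and cyclic gilts for each gene in LE, GE, BV and S, with the standard error as bars. The LE points stand apart from those of the other compartments, nearest for EIF4E3 in GE at 1.49 beside 2.48, and GPRC5B in GE and POF1B in GE, BV and S have no point because they did not pass the filter there.

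As the choice of the genes implies, all 10 were called in LE at a false discovery rate of 1%, 9 higher and 1 lower, where 3.32% of the 12002 genes tested were called, 2.02% higher and 1.29% lower. None of the 8 members tested in GE, 9 in BV and 9 in S was called at the p of 3.28e-04 that this rate sets in LE, where 0.748%, 1.86% and 0.293% of genes were called by edgeR. Without adjustment, 2742, 3161 and 1735 genes of these compartments had a p below 0.05. The robust GLM of edgeR, the study's own method, called EIF4E3 in GE and EMB in S, and DESeq2 called these and SOS2 in GE. When 1 LE library was left out in turn, 7 to 10 members stayed called in LE. SMC6 was lost when any of gilts CL40, CL42, PL139, PL39 and PL43 was left out, TLK2 without CL40 or CL42, SOS2 without gilt CL40 and UBASH3B without gilt CL42. In LE, groups without overlap were found for 10.3% of all genes in the higher and 9.12% in the lower direction. Outside LE this held in the higher direction for EIF4E3, SOS2 and TLK2 in GE (11.6% of genes) and EMB in S (3.62%), with POF1B in S beside them as a gene that did not pass the filter there, and in the lower direction for SMC6 in BV (9.54%). These shares and counts belong to the contrast that chose the genes and are given as a description.

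The difference between the effect in LE and that in another compartment was likewise part of the choice. For 7 of the 8 genes in all 4 filtered tables, the effect in LE exceeded that in GE by 0.94 (SE 0.26, EIF4E3) to 6.43 (SE 0.80, EMB) on the log2 scale, that in BV by 1.59 (SE 0.19, TLK2) to 6.25 (SE 0.76, EMB) and that in S by 1.49 (SE 0.19, TLK2) to 5.25 (SE 0.73, EMB). For SMC6, the gene that was lower, the differences were -1.67 (SE 0.23), -1.44 (SE 0.22) and -1.64 (SE 0.22). Against GE 7 were called, where 1.54% of 9727 genes were, with EIF4E3 outside. Against BV and S all 8 were called, where 3.37% and 1.48% of genes were. Against GE, FGL2 lost its call in 4 of 8 fits, without gilts CL128, CL40, PL39 or PL43, and its value ranged from 2.90 to 4.27. UBASH3B lost it without gilts PL39 or PL43 and SOS2 without PL43, so that 4 were called without PL43. In a fit over genes in at least 1 filtered table, GPRC5B differed by 2.31 (SE 0.50), 3.21 (SE 0.37) and 2.65 (SE 0.36) from GE, BV and S, and POF1B by 5.96 (SE 0.90) from GE, while its values against BV and S rest on near-zero counts. Among the 9727 genes, 251 were called for pregnancy in LE and in no other compartment, including all 8, and 37 of them also differed from each of the other compartments, including 7 of the 8.

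The pregnant LE libraries were not alike. Gilt PL41, the deepest library with 7081556 counts, was the lowest of the 4 for 6 of the 9 genes that were higher, namely SOS2, EMB, TLK2, UBASH3B, NDFIP1 and GPRC5B. Over all 243 genes called higher in LE, gilt PL41 was the lowest for 135, or 55.6%. For POF1B it was instead the highest. Gilt PL43 was the highest for 5 of the 9 genes. Over the 243 genes it was the highest for 65, beside 77 for gilt PL39 and 72 for gilt PL139.

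The place of LE among the compartments was read within each state from the joint fit with the gilt as a block. These values contain the LE libraries that chose the genes, so they are given as a description with no test. In cyclic gilts, LE stood below BV for 5 of the 8 genes in all filtered tables. The log2 differences were -4.02 (SE 0.38) for FGL2, -1.70 (SE 0.52) for EMB, -0.97 (SE 0.17) for EIF4E3, -0.37 (SE 0.45) for UBASH3B and -0.20 (SE 0.13) for SOS2, of which the last pair lay within 2 SE of 0. The same 5 genes were lower in cyclic LE than in cyclic S, from -0.38 (SE 0.13) for SOS2 to -2.38 (SE 0.36) for FGL2. TLK2 and NDFIP1 were within 2 SE of 0 in cyclic LE against BV (0.17, SE 0.14, and 0.16, SE 0.17) and against S (0.03, SE 0.14, and 0.21, SE 0.17).

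Against cyclic GE, the other epithelium, EMB was lower in LE by -2.13 (SE 0.52), and the other 7 genes had positive values, from 0.23 (SE 0.13) for SOS2 to 2.44 (SE 0.16) for SMC6. FGL2 stood at 2.38 (SE 0.42) and UBASH3B at 1.39 (SE 0.49), with low GE levels in each state.

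In pregnant gilts all 8 genes were higher in LE than in each other compartment. The smallest differences were those of SMC6, 0.77 (SE 0.17) against GE, 0.80 (SE 0.15) against BV and 0.61 (SE 0.15) against S. The largest were 5.88 (SE 0.48) for FGL2 and 5.83 (SE 0.60) for UBASH3B against GE, and 4.55 (SE 0.57) for EMB against BV. FGL2, which BV held in both states, was higher in pregnant LE than in pregnant BV by 1.41 (SE 0.34).

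SMC6 thus differed from the other genes in where it started. It was higher in cyclic LE than in GE, BV and S by 2.44 (SE 0.16), 2.24 (SE 0.16) and 2.25 (SE 0.16), and in pregnant gilts it was nearer to the other compartments but still above them. In a fit over genes in at least 1 filtered table, GPRC5B was lower in cyclic LE than in BV by -0.79 (SE 0.26) and than in S by -0.82 (SE 0.26), and higher in pregnant LE by 2.41 (SE 0.26) and 1.83 (SE 0.25). Against GE it was higher in LE in both states, by 3.65 (SE 0.33) and 5.96 (SE 0.37).

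**Figure D3:**
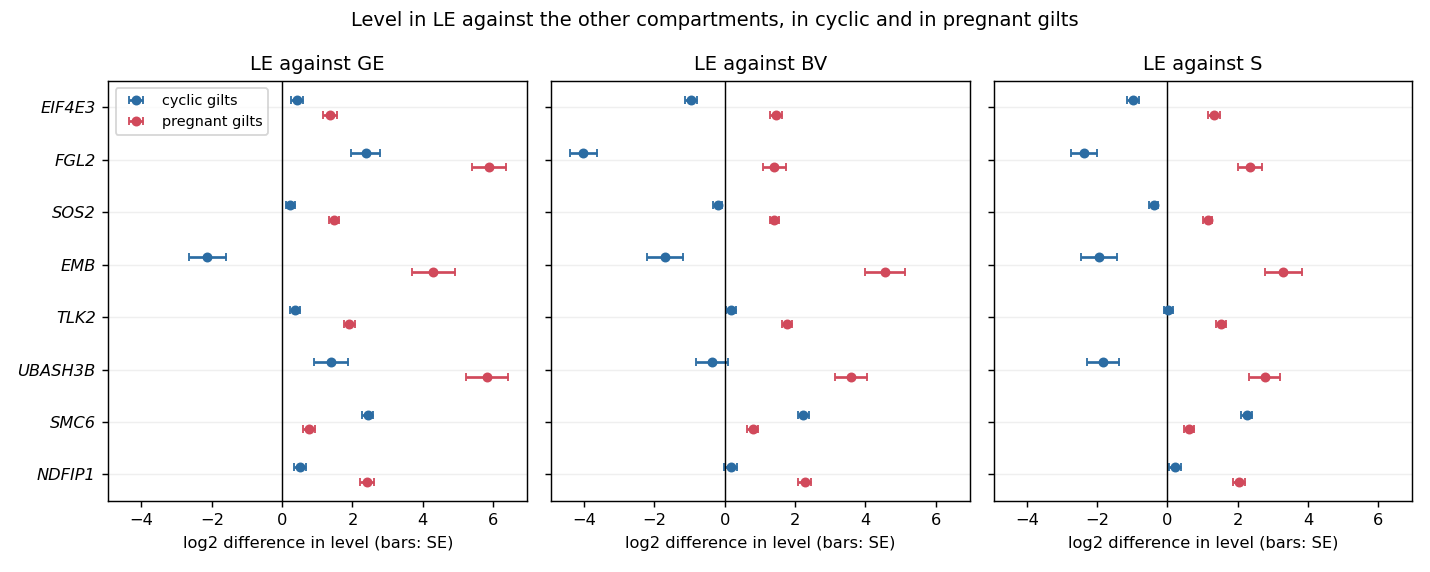
Log2 difference in level between LE and GE (left), BV (middle) or S (right) for the 8 genes in all filtered tables, in cyclic (blue) and pregnant (red) gilts, with the standard error as bars. All red points lie to the right of 0, while the blue points of EIF4E3, FGL2, SOS2, EMB and UBASH3B lie to the left of 0 against BV and S, and SMC6 is the gene whose blue point lies to the right of its red one in each panel.

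The nearest relatives of the genes were read from the same fits, on lists written from known roles but with earlier results of these data known. Per kilobase of exons, EIF4E3 went from 6.03 ± 0.37 to 33.4 ± 2.89 CPM per kb in LE, and EIF4E, the canonical cap-binding factor, ranged from 11.9 to 28.2 in cyclic and from 9.17 to 14.7 in pregnant LE. EIF4E3 thus made up 19.9% ± 4.17 of the summed level of EIF4E, EIF4E2 and EIF4E3 in cyclic LE and 68.0% ± 4.19 in pregnant LE. EIF4E itself was not called in LE (log2 fold change -0.79, SE 0.25, adjusted p = 0.0765 by edgeR), and its values of -0.81 (SE 0.20) in GE, -0.85 (SE 0.16) in BV and -0.61 (SE 0.14) in S had the same sign without a call.

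The SOS family showed less contrast. SOS1 was not called in LE (0.60, SE 0.21, adjusted p = 0.0925 by edgeR), and SOS2 made up 51.6% ± 5.10 of the pair per length in cyclic and 69.7% ± 4.95 in pregnant LE. For embigin, the relatives BSG (0.57, SE 0.14, adjusted p = 0.0281) and NPTN (-0.12, SE 0.14) were not called, and the share of EMB in the 3 genes per length was 2.36% ± 0.72 in cyclic and 69.4% ± 17.5 in pregnant LE. SMC5, the partner of SMC6, had a log2 fold change of 0.01 (SE 0.16), with 16.9 CPM per kb in each state, while SMC6 had 68.6 ± 13.9 and 21.5 ± 6.19 CPM per kb.

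TLK1 (0.12, SE 0.19), NDFIP2 (0.14, SE 0.26), EIF4E2 (-0.08, SE 0.17), GPRC5A (0.07, SE 0.64) and GPRC5C (-0.08, SE 0.43) were not called in LE either. GPRC5B made up 0.802% ± 0.295 of the 3 GPRC5 genes in cyclic GE and 1.77% ± 1.06 in pregnant GE, against 23.6% ± 15.3 and 69.3% ± 10.2 in LE. FGL1 and UBASH3A did not pass the filter in LE, with at most 0.222 and 0.507 CPM per kb in any LE library.

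**Figure D4:**
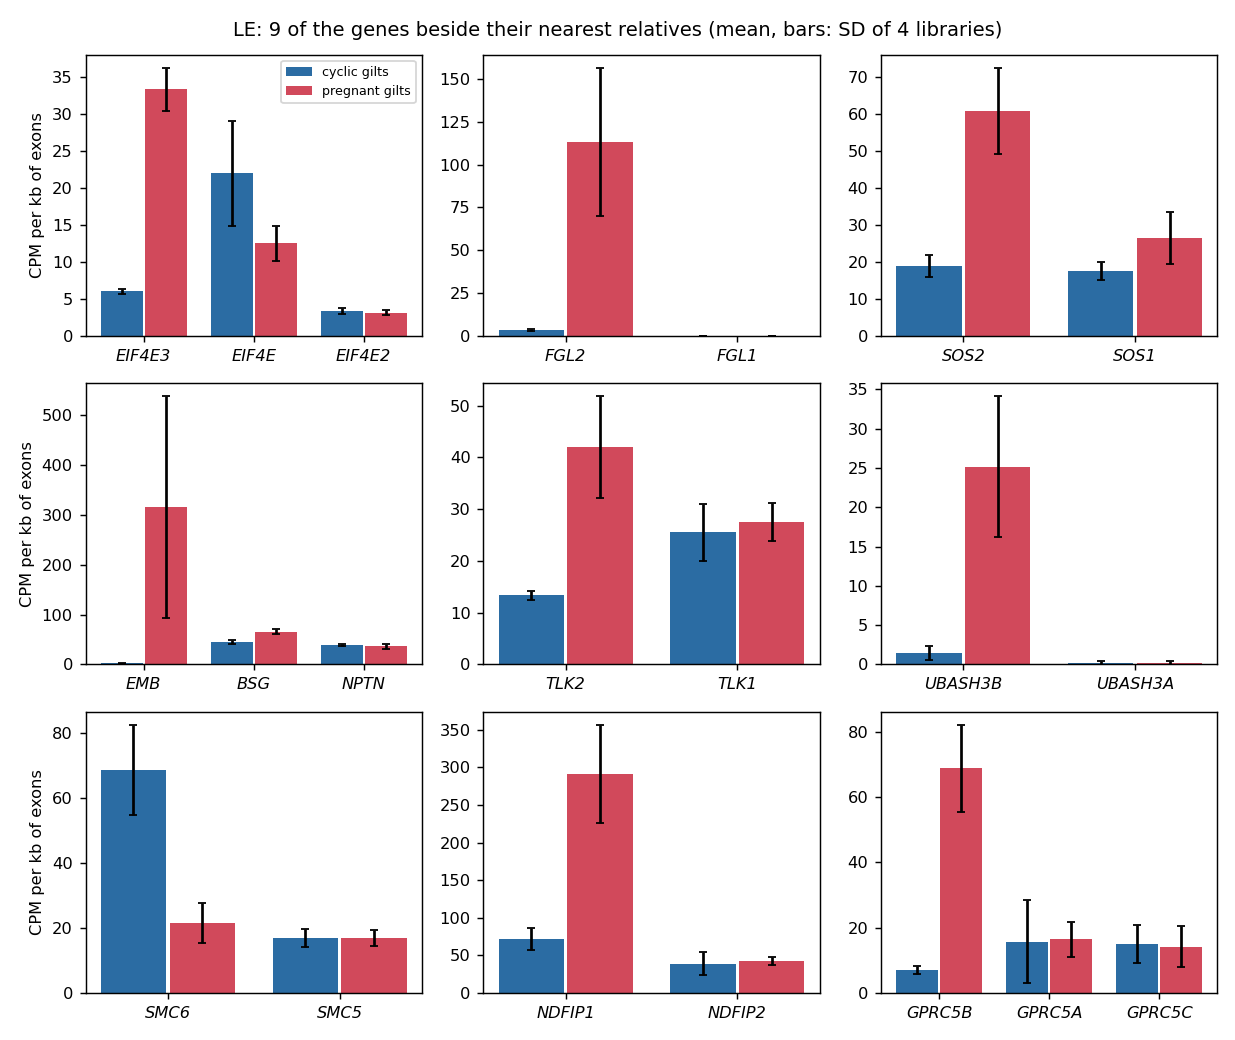
Level in LE per kilobase of exons for 9 of the genes, each beside its nearest relatives, as the mean of 4 cyclic (blue) and 4 pregnant (red) libraries with the SD as bars on linear axes. None of the relatives was called between the states, and EMB, TLK2 and GPRC5B go from below to above all their relatives shown.

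Of 112 listed relatives, from partners and complexes of each gene, 109 matched a gene and 89 were tested in LE. In pregnant LE 1 of them was higher and 1 lower, where 2.02% of all genes were higher and 1.29% lower, with a median log2 fold change of 0.04 beside -0.01 over all genes. Both belong to the Ras list of SOS2. GAB1, a docking protein below receptor tyrosine kinases, had 84.7 ± 32.8 CPM in LE of cyclic and 386 ± 24.1 CPM in LE of pregnant gilts (log2 fold change 2.19, SE 0.28, adjusted p = 0.00289 by edgeR). RASGRP1, another Ras exchange factor, fell from 57.9 to 93.9 CPM in cyclic to 13.4 to 24.4 CPM in pregnant LE (-2.10, SE 0.24, adjusted p = 0.00162). The call for GAB1 was lost without gilt CL40 (adjusted p = 0.0132 by edgeR), gilt PL39 (adjusted p = 0.011) or gilt PL43 (adjusted p = 0.0103). None of the 85 tested in GE and the 84 in S was called by the quasi-likelihood test of edgeR, where 0.748% and 0.293% of all genes were. Of these, 23 and 21 had an unadjusted p below 0.05, DESeq2 called 8 and 3, and the robust GLM called 6 and 3. Over all genes, 2742 of 11905 in GE and 1735 of 11935 in S had such a p. DESeq2 called 791 of 11872 and 310 of 11922 of all genes, and the robust GLM 793 of 11905 and 377 of 11935. In BV 4 of 83 were higher, where 1.3% of genes were, namely CGN, MYH14, CDH1 and DSP of the junction list of POF1B, with log2 fold changes of 2.96, 2.97, 3.77 and 2.24. CDH1 kept its call whichever BV library was left out, while CGN kept it only in the fit without gilt PL41, MYH14 only without CL40 or PL41, and DSP only without PL139, PL41 or PL43. These are genes of epithelial junctions, and the epithelial marker sum, which includes CDH1 itself, differed between the BV groups as given above. Its part in their change was not tested.

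By the quasi-likelihood test of edgeR, no relative was called in the lists of the cap-binding complex (13 tested in LE), fibrinogen-like proteins and thrombin generation (6), monocarboxylate transporters (6), Tousled-like kinases and histone chaperones (6), UBASH3 and CBL proteins (6), the SMC complexes (10), NEDD4 ligases (11) or GPRC5 receptors (3) in any compartment.

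Marker lists were set beside the captures. All 10 epithelial markers were detected in LE, with a summed level of 3015 to 3485 CPM in cyclic and 2416 to 2744 CPM in pregnant gilts. All 10 fibroblast markers were also present in LE, at 4336 to 15673 CPM in cyclic and 10768 to 17705 CPM in pregnant gilts, beside 41618 to 109952 CPM in cyclic S. Leukocyte markers summed to 57.6 to 121 CPM in cyclic and 101 to 173 CPM in pregnant LE, and CD79A was at 0 in cyclic LE. Endothelial markers gave 140 to 760 CPM and 435 to 1077 CPM, and smooth muscle markers 334 to 703 CPM and 292 to 445 CPM. In BV, where FGL2 was high, endothelial markers gave 1610 to 3078 CPM in cyclic and 1950 to 3194 CPM in pregnant gilts, and smooth muscle markers 6936 to 21132 CPM and 1837 to 8202 CPM. Trophoblast markers gave 25.3 to 41.7 CPM in cyclic and 37.99 to 52.4 CPM in pregnant LE, with 5 of 12 genes at 0 in each LE group. IL1B2, CYP19A1 and CDX2 were at 0 in both. PAG6 and HAND1 were at 0 only in cyclic LE, and CYP19A2 and CYP19A3 only in pregnant LE. The trophoblast list holds PAG1, a symbol that may name another gene in this annotation. In cyclic gilts, which carried no conceptus, that list gave 88.1 to 112 CPM in BV, 48.5 to 89.9 CPM in S and 17.4 to 24.0 CPM in GE. Its sum can therefore not be read as an amount of trophoblast. The part of any of these cell types in the LE levels of the 10 genes was not tested.

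The genes whose pattern was most like each member were found by Pearson's correlation of log2 CPM over the 31 libraries. These libraries share gilts and the change in LE, and no test was made. SMC6 was nearest to C10H9orf72 (r = 0.97), ANXA7 (0.92) and DCBLD1 (0.92). FGL2 was followed by LIMCH1 (0.95), THY1 (0.95) and PEAK1 (0.94), and GPRC5B by PQLC1 (0.95), SCPEP1 (0.93) and UST (0.93). FAM105A (0.91) and ADAP2 (0.88) were among the genes nearest to UBASH3B, and FOSL2 (0.89) and WNK1 (0.87) among those nearest to EIF4E3. NDFIP1 was nearest to CSNK1G3 (0.94), GJB5 (0.91) and PGD (0.91), TLK2 to LOC102165844 (0.93), CSNK1G3 (0.93) and CEP120 (0.91), and SOS2 to CEP120 (0.91), SAA3 (0.87) and FOSL2 (0.87). POF1B was nearest to STEAP2 (0.90), ATP7B (0.89) and FAM13A (0.88), and EMB to S100A9 (0.88), S100A12 (0.88) and WNK1 (0.84).

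Among the members themselves, TLK2 and NDFIP1 (r = 0.95), SOS2 and TLK2 (0.93) and FGL2 and GPRC5B (0.91) were the closest pairs, while FGL2 and POF1B had r = 0.11 and GPRC5B and POF1B 0.24. SMC6 had r between -0.28 and 0.24 with the other 9.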

How the data were processed

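RNA of LE, GE, BV and S from 8 gilts was sequenced as single reads. Per the methods of the study, the authors used Trim Galore for trimming, Hisat2 for alignment (Sscrofa11.1), nudup against PCR duplicates and QuasR to obtain counts for each NCBI gene. Versions, the strand setting of the counting and the CPM limit of the filter are not given in the sources used here. The deposited counts came as a full and a filtered table for each compartment, and both were used. Library totals were 2415216 to 7081556 counts, and counting error alone is covered by the intervals and floors given.

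The 10 members and the lists of relatives, markers and motifs were chosen with earlier results of these data known. Pregnant and cyclic gilts were compared in each filtered table with edgeR 4.0.16 (R 4.3.3), TMM scaling and the quasi-likelihood test, at a Benjamini-Hochberg false discovery rate of 1% in LE and, elsewhere, at the largest p called in LE (3.28e-04). Differences between compartments came from 1 joint fit over the 9727 genes in all 4 filtered tables, with the gilt as a block, and for GPRC5B and POF1B over the 13887 genes in at least 1. Levels of LE against the other compartments came from the same fits, and they are given within each state with no test because they contain the libraries that chose the members. The pairing comes from the labels, which give the same gilt number to libraries of 1 animal. Deviations from group means had a median correlation of 0.168 over 45 same-gilt pairs and -0.0486 over 135 others. Because the deviations are centred within each group, the value of the other pairs is tied to that of the same-gilt pairs. It is no separate baseline. All replicates within a group are separate gilts.

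Named genes were all members, the nearest family members, every relative called for pregnancy, and the 3 genes with the highest correlation with each member, 2 of which are not reported here. Alternatives were DESeq2 1.42.0, the robust GLM of edgeR, RLE scaling, no filter, a false discovery rate of 5%, no gilt block and leaving out each library or gilt. The scripts were tested on simulated data. Sequences and exon lengths were read from the RefSeq genome and annotation of Sscrofa11.1 with Python 3.11.15 (pandas 2.3.3).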

Additional observations from a re-analysis of the deposited data

Results flagged for a closer look

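Gilts carry the names of their LE libraries. In 4 of 70 groups of 4 libraries checked, 1 library lay apart from the others by Dixon's criterion, which chance does in about 1 in 20 groups. EMB had 124 CPM in cyclic GE of gilt CL128, where the next library had 51.9. EMB had 395 CPM in pregnant S of gilt PL139, where the next had 173. UBASH3B had 76 CPM in cyclic S of gilt CL78, where the next had 39.4. POF1B had 0.28 CPM, a single count, in cyclic S of gilt CL40, where the others had 0.

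Among the relatives, 4 differences of the pregnancy effect between compartments passed the test of the difference in the joint fit of edgeR. They were 2 of 79 relatives against GE and 2 of 79 against BV, where 1.54% and 3.37% of all genes passed. Against S it was 0 of 79, where 1.48% passed, with 12 at an unadjusted p below 0.05 and 3 called by DESeq2. Over all 9727 genes, 1772 had such a p against S and DESeq2 called 324. GAB1 was more affected in LE than in GE by 2.14 on the log2 scale (adjusted p = 0.00151) and than in BV by 2 (adjusted p = 0.000747). The effect on CGN in LE differed from that in BV by -3.11 (adjusted p = 0.00138). SH3KBP1, a partner of CBL proteins that was named after its values were seen, differed between LE and GE by -1.83 (adjusted p = 0.00502).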

How the results depend on the processing

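Members called in GE rose from 0 to 2 with DESeq2 (EIF4E3 and SOS2) and to 1 with the robust GLM, with a false discovery rate of 5% or with no filter, and in S from 0 to 1 with DESeq2 or the robust GLM (EMB). For the effect in LE minus that in GE, 4 to 7 members were called when 1 gilt was left out. The effect in LE was called for 7 to 10 members when 1 library was left out. All other counts of members stayed within 1.5 times. Over 1162 values of single genes under the alternatives, 1093 kept direction and call, 41 lost a call, 13 gained one and 15 without a call changed sign. All 41 losses came from leaving out a gilt or library, 9 for members in LE, 7 for members in LE minus GE, 4 for levels averaged over both states and 21 for GAB1 in LE and junction genes in BV. The averaged level of FGL2 in LE against S, -0.01, was never called and changed sign to 0.0143 in the fit over genes in at least 1 filtered table, while it ranged from -0.21 to 0.11 over left-out gilts. The cause was not tested. Of the differences of LE from the others within each state, TLK2 against S in cyclic gilts, 0.03, changed sign (-0.05 to 0.09), and the other 47 kept theirs; these settings, and those for POF1B without a gilt, were chosen after seeing the data.

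Over all genes, the counts called in LE, GE, BV and S, in that order, were 398, 89, 206 and 35. DESeq2 gave 1342, 791, 943 and 310, the robust GLM 1411, 793, 1216 and 377, and a false discovery rate of 5% gave 1288, 221, 958 and 4. Leaving out 1 library moved the count in LE to between 101 and 439. For the differences from GE, BV and S, DESeq2 called 398, 691 and 324 genes, against 150, 328 and 144. Without the replicate block these were 106, 253 and 88, with 7, 8 and 8 members. Relatives called in LE, GE, BV and S went from 2, 0, 4 and 0 to 10, 8, 18 and 3 with DESeq2 and 7, 6, 14 and 3 with the robust GLM, and those called against GE, BV and S from 2, 2 and 0 to 3, 8 and 3 with DESeq2. No paired analysis was possible because pregnant and cyclic gilts are different animals, for the effect within a compartment. With 3 or 4 gilts a group, and at most 31 counts of POF1B in any group outside LE, small changes outside LE could not be resolved.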
